A study of Mus musculus with 2 samples.

Results

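The genes described here are 32 genes of glycolysis and of the response to low oxygen, chosen by name from the 22401 features counted in whole mouse hearts at E11.5, a stage of midgestation. All 32 were present in both libraries. They cover glucose uptake (Slc2a1, Slc2a3), every step from hexokinase to pyruvate kinase, lactate dehydrogenase and lactate transport (Ldha, Ldhb, Slc16a1, Slc16a3), regulators of flux (Pfkfb3, Pdk1, Pdk3), the oxygen-sensing factor Hif1a, and genes known as hypoxia-response genes (Bnip3, Egln1, Egln3, Ankrd37, Ndrg1, Higd1a, P4ha1). One library came from control embryos of genotype Hand2fx/+ R26RmTmG/wt, without Cre. The other came from H2CKO embryos, Nfatc1Cre/wt Hand2fx/fx R26RmTmG/wt, in which Cre made from Nfatc1 deletes the transcription factor gene Hand2 in the endocardium, the inner lining of the heart, and its descendants. All embryos therefore carried at least 1 floxed Hand2 allele and 1 copy of the membrane Tomato and GFP reporter. Embryos waited on ice for about 3 hours before the hearts were dissociated, per the labels' protocols. The number and sex of the embryos are not in the labels.

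Glycolysis splits glucose into pyruvate in the cytosol. Lactate dehydrogenase can turn that pyruvate into lactate for export, or pyruvate dehydrogenase can pass it to the citric acid cycle, a step that the Pdk kinases restrain. When oxygen is scarce, HIF-1, a dimer whose oxygen-labile subunit is encoded by Hif1a, escapes hydroxylation by the Egln enzymes. It then binds a short core motif in regulatory DNA, which raises transcription of most glycolytic genes and of Bnip3, Ankrd37, Egln1 and Egln3. Control of HIF-1 is largely on its protein, which was not measured. The embryonic heart beats in a low-oxygen environment and is known for a high rate of glycolysis.

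The bases before the start of 6 members are shown because these genes were high in 1 or both of 2 regions of the heart muscle (values below), with 1 gene that was low there for contrast. The RefSeq promoter table (GRCm38.p6) held 30 of the 32 genes, with Slc2a3 and Ndrg1 missing. Each run holds up to 250 bases before the annotated start, written 5′ to 3′ along the gene, leaving out bases that the GENCODE annotation places in an exon. Capitals mark the letters ACGTG or GCGTG, the core motif, or the same on the opposite strand (CACGT or CACGC). Matches may overlap, and CACGTG counts as 2.
Bnip3: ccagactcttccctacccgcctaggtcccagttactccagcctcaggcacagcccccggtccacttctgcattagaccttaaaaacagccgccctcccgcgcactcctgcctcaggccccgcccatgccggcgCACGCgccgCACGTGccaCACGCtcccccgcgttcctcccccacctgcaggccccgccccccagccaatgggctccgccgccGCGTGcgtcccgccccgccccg
Ankrd37: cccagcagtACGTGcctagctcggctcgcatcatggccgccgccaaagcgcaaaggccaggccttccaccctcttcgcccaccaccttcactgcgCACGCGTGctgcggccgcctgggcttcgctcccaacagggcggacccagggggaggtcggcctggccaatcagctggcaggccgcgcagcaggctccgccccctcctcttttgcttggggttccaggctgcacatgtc
P4ha1: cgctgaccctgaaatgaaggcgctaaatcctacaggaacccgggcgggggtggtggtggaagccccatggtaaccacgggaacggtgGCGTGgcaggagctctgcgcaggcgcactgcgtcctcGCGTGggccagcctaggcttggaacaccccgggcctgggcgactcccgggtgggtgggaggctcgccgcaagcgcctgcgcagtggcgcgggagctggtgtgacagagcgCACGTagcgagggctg
Slc2a1: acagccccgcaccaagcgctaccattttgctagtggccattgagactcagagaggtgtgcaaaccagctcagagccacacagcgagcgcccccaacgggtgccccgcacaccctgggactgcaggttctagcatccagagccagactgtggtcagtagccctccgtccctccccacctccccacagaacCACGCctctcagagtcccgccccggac
Egln3: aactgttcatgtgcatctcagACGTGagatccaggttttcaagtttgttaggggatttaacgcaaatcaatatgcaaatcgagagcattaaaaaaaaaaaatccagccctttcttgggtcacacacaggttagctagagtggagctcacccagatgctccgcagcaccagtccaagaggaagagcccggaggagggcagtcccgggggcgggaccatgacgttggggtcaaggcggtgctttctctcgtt
Aldoc: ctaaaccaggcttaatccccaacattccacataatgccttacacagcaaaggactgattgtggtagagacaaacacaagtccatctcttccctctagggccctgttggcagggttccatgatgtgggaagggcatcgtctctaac
Slc16a1: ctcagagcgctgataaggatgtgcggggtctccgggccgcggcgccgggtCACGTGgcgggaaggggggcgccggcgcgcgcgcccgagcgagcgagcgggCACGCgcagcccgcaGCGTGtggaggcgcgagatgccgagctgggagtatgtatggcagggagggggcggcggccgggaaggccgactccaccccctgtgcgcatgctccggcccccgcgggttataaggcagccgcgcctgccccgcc
Bnip3, which encodes a mitochondrial mitophagy receptor, has its run at chr7:138909520-138909756 on the minus strand, with 5 matches. Ankrd37, an ankyrin-repeat protein gene, has its run at chr8:45999868-46000100 on the minus strand, with 3 matches. P4ha1, a subunit of collagen prolyl hydroxylase, lies at chr10:59323046-59323295 on the plus strand, with 3 matches. Slc2a1, the glucose transporter GLUT1, lies at chr4:119108495-119108710 on the plus strand, with 1 match. Egln3, a HIF prolyl hydroxylase, lies at chr12:54203875-54204124 on the minus strand, with 1 match. Aldoc, an aldolase, lies at chr11:78322823-78322967 on the plus strand, and its run holds 0 matches. Slc16a1, the lactate transporter MCT1, was low where the others were high, yet its run at chr3:104638414-104638663 on the plus strand holds 4 matches. Over the full 250 bases, exon bases included, Aldoc held 1 match, Slc2a1 2 and Ankrd37 4, and the others shown the same as their runs. Of the 30 genes, 25 (83.3%) held either motif there and 9 (30.0%) held at least 3 matches. Of all 27025 genes in the table, 38.6% held either motif and 6.69% held at least 3 matches. Many genes of that table are not transcribed in the heart: of the 3839 at 20 CPM (a gene's UMIs in a class, scaled to the same total in every class) or more in cardiomyocyte-like cells of both libraries, 61.2% held either motif and 14.2% at least 3. A match is a description of the letters, not of binding.

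The control matrix held 14114 barcodes and H2CKO 13885. Filtering left 9054 cells of the control (median 16314.5 UMIs, or unique molecules, per cell) and 11170 of H2CKO (median 13310.5). The libraries shared 57 barcodes, 29 of them among kept cells. Cells fell into 6 named classes from markers, without the members among the clustering genes: cardiomyocyte-like (3291 control and 4121 H2CKO cells), mesenchymal-like (1632 and 1052), epicardial-like (705 and 208), endothelial-like (392 and 737), erythroid-like (2719 and 4869) and white-blood-cell-like (68 and 80). The other 247 control and 103 H2CKO cells lay in 2 clusters left unnamed, because genes of another class led them, and enter no class. Hand2 in endothelial-like cells was at 224 CPM in the control and 11.1 in H2CKO, and in cardiomyocyte-like cells at 83.6 and 74.0 CPM. With 1 library per genotype there is no replicate check, so no test was made. Intervals are exact, at 95%, and cover counting error only. A gene is called past 2-fold when log2 of the ratio of CPM plus 5 is at least 1 in size, with at least 20 CPM and 20 UMIs on the higher side; between cell classes this must hold in both libraries, each class being set against the median of the others.

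Cardiomyocyte-like cells held more of the glycolytic transcripts than any other class. The 32 genes made up 1.66% of their UMIs in the control and 1.92% in H2CKO, against 0.398% and 0.472% in endothelial-like cells, 0.636% and 0.698% in mesenchymal-like cells, 0.717% and 0.906% in epicardial-like cells, and 0.857% and 0.943% in white-blood-cell-like cells. Of the 26 members that passed the filter on low values, 22 were past 2-fold higher in cardiomyocyte-like cells in both libraries and 0 were lower. Of all 5442 genes tested the same way, 12.1% were higher and 5.05% lower. That filter can be passed through the muscle alone. With it put on the median of the other classes, an alternative added after seeing the data, 17 of 21 members were higher, and 5.61% of all genes. The members' median log2 ratio was 1.57, against -0.09 over all genes. Of all 32, 25 were highest in cardiomyocyte-like cells in both libraries, as the map of levels by class shows. Dissociation-stress genes went the other way: they summed to 495 and 460 CPM in the muscle and to between 1146 and 3537 CPM in the other classes outside the erythroid one, and 7 of 9 tested were past 2-fold lower in the muscle. The mitochondrial share was 4.54% and 6.98% in the muscle and at most 4.77% in the others. Their part in the contrast was not tested.

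**Figure D1:**
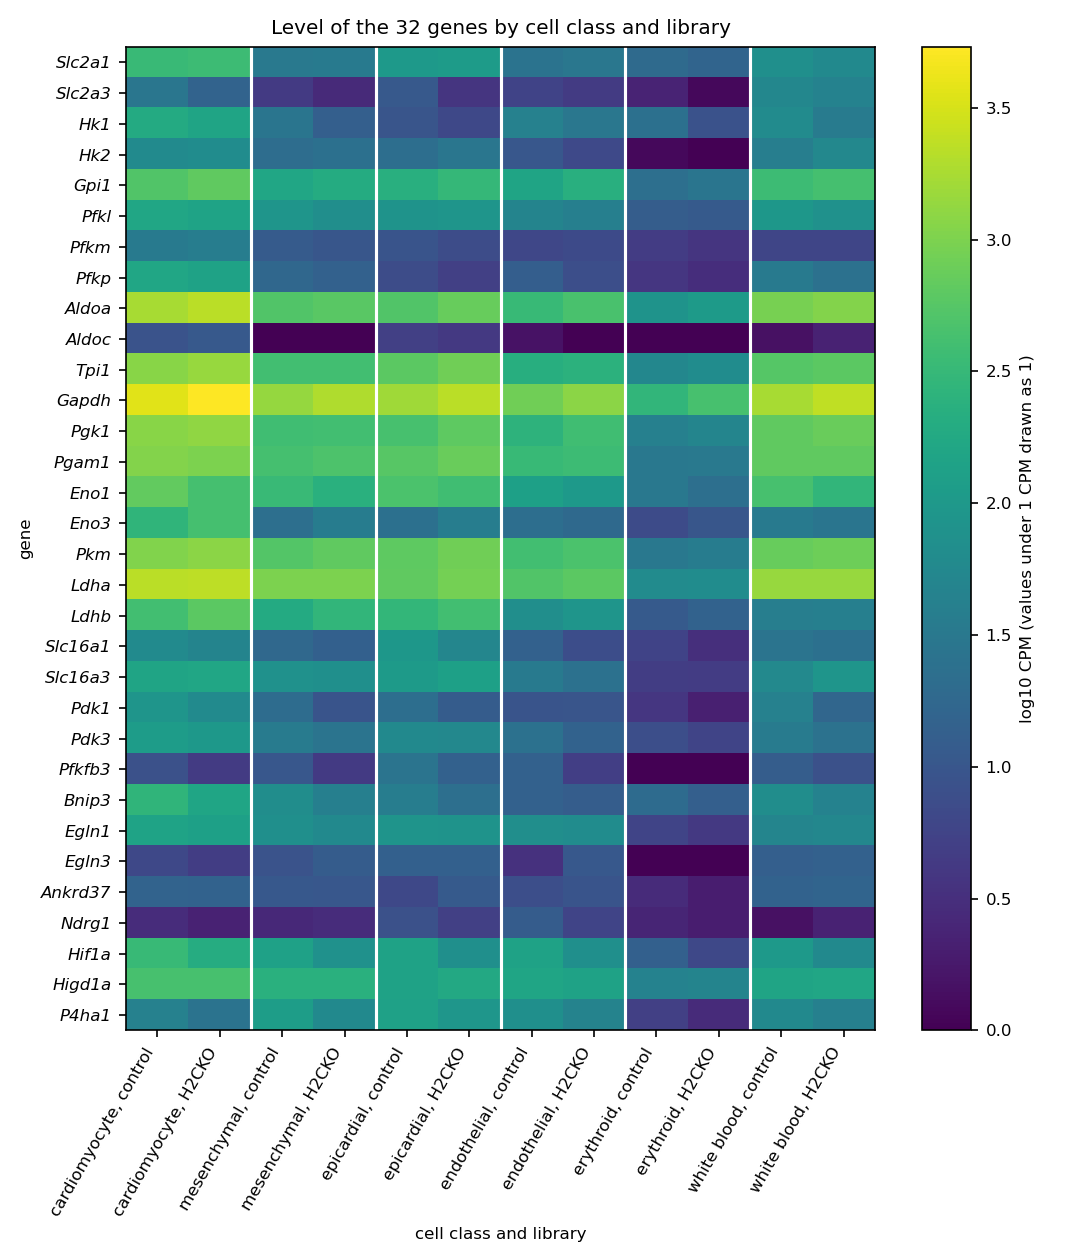
Level of each of the 32 genes (lines) in the 6 cell classes of the control and H2CKO libraries (columns), as log10 CPM, with values under 1 CPM drawn as 1. The leftmost pair of columns, cardiomyocyte-like cells, is brightest for 25 genes, and the erythroid-like pair is darkest for 29.

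The 2 glucose transporters differed in where they were high. Slc2a1 stood at 343 CPM in control and 362 CPM in H2CKO cardiomyocyte-like cells, followed by epicardial-like cells at 106 and 111 CPM. In mesenchymal-like cells it was at 32.3 and 34.5 CPM, and in endothelial-like cells at 26.7 and 30.2 CPM. The libraries gave the same order for these 4 classes, with no overlap between the muscle and any other class. Slc2a3, the high-affinity transporter GLUT3, had another pattern: it was highest in white-blood-cell-like cells, at 53.4 CPM (interval 41.8 to 67.2, 72 UMIs) in control cells and 45.2 CPM (34.4 to 58.2, 59 UMIs) in H2CKO cells, against 28.8 and 15.2 CPM in the muscle. With each cell named by its own markers, Slc2a3 was at 21.8 and 19.3 CPM in white-blood-cell-like cells. Beside the muscle levels above, the control value was then lower and the H2CKO value still higher. The order in the control therefore rests on how the class was drawn. Slc2a1 made up 57.4% of the UMIs of the pair in control white-blood-cell-like cells and 56.6% in H2CKO, against 92.3% and 96.0% in the muscle. Shares of this kind are compared between classes only, since capture of 2 transcripts of different sequence may differ.

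Hexokinase, which traps glucose in the cell, was also highest in the muscle. Hk1 was at 190 and 151 CPM there, and lowest in epicardial-like cells, at 9.59 and 6.48 CPM. Hk2 was at 60.7 and 65.7 CPM in the muscle and at 22.0 and 29.2 CPM in epicardial-like cells. The Hk1 share of the pair was thus 75.8% and 69.7% in the muscle but 30.4% (interval 25.7 to 35.4) and 18.2% (10.3 to 28.6) in epicardial-like cells. That epicardial share rests on 362 control and 77 H2CKO UMIs. Without doublet removal it was 65.9% and 61.5%, with Hk1 at 65.5 and 80.8 CPM in epicardial-like cells, so neither the low level nor the low share held there.

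Phosphofructokinase, the committed step, differed between classes in its isozymes. Pfkp was at 163 and 143 CPM in the muscle, 17.6 and 14.3 CPM in mesenchymal-like cells and 7.32 and 5.09 CPM in epicardial-like cells. Pfkm, the muscle form, was at 33.4 and 37.6 CPM in the muscle and at 12 CPM or less in every other class. Pfkl was spread more evenly, from 159 and 148 CPM in the muscle to 47.8 and 40.3 CPM in endothelial-like cells among classes outside the erythroid one, where it was lower still (12.7 CPM in the control), and did not pass 2-fold in the control. Pfkp therefore made up 45.8% and 43.5% of phosphofructokinase UMIs in the muscle, and at most 25.4% in the control or 22.9% in H2CKO in any other class. Without doublet removal Pfkp in epicardial-like cells was at 53.6 and 76.0 CPM and 30.9% and 34.8% of the family, above those limits. Pfkfb3, which makes the activator of this enzyme, was instead highest in epicardial-like cells, at 27.5 and 14.4 CPM.

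The steps below phosphofructokinase were also highest in the muscle. Gapdh was at 3642 and 5381 CPM in cardiomyocyte-like cells, and at 1774 and 2401 CPM in white-blood-cell-like cells, the next class. Aldoa was at 1767 and 2228 CPM, Tpi1 at 1168 and 1445 CPM, Pgk1 at 1158 and 1299 CPM and Pgam1 at 1082 and 983 CPM in the muscle. Pkm, which makes pyruvate, reached 1060 and 1195 CPM there, within 2-fold of the other classes' median. Aldoc, a minor aldolase, was at 9.08 and 10.9 CPM in the muscle and under the filter.

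Enolase differed by class and by library. Eno3, the muscle form, was at 278 and 428 CPM in cardiomyocyte-like cells and at 39 CPM or less in every other class. Eno1, the broad form, was at 692 and 425 CPM in the muscle and 468 and 382 CPM in epicardial-like cells. Eno1 made up 71.3% (71.0 to 71.7) of enolase UMIs in control muscle and 49.8% (49.4 to 50.2) in H2CKO, against 93.6% and 86.1% in mesenchymal-like cells. Eno1 has a near-identical copy, Eno1b, to which 1110 control and 675 H2CKO UMIs were assigned, so the count of Eno1 depends on how the authors' counting split them.

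Lactate handling separated the classes. Ldha, whose subunit favours lactate formation, was at 2181 and 2283 CPM in the muscle and 1409 and 1439 CPM in white-blood-cell-like cells. Ldhb, whose subunit favours the reverse step, was at 395 and 622 CPM in the muscle and 293 and 395 CPM in epicardial-like cells, but 40.04 (30.1 to 52.2) and 41.3 (31.0 to 53.9) CPM in white-blood-cell-like cells. The Ldha share was accordingly highest in white-blood-cell-like cells, at 97.2% in each library, and lowest in epicardial-like cells, at 69.4% and 69.3%. Without doublet removal the epicardial share was 80.7% and 79.5%, and in H2CKO it was then no longer the lowest, with mesenchymal-like cells at 77.6%. Slc16a3, the lactate exporter MCT4, was at 149 and 160 CPM in the muscle and 107 and 133 CPM in epicardial-like cells. Slc16a1 was highest in epicardial-like cells, at 93.4 (87.9 to 99.2) and 52.3 (43.1 to 62.9) CPM. The muscle stood at 60.4 and 47.8 CPM, and the intervals of these 2 classes overlapped in H2CKO.

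**Figure D2:**
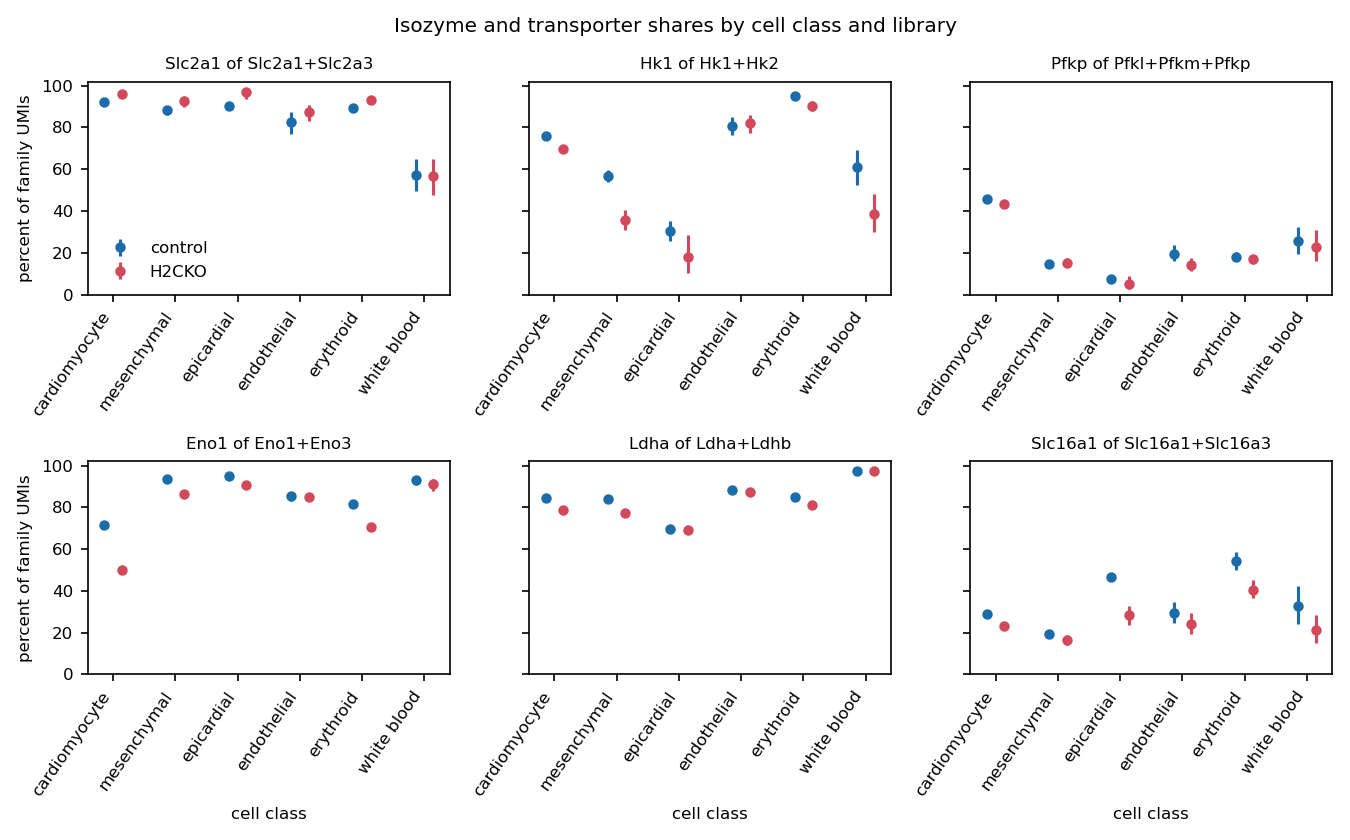
Share of 1 gene in the UMIs of its family (percent) by cell class, for 6 pairs or families; blue points are the control library, red points H2CKO, and bars are exact 95% binomial intervals. Eno1 is lowest in cardiomyocyte-like cells (71.3% and 49.8%), Slc2a1 in white-blood-cell-like cells (57.4% and 56.6%) and Ldha in epicardial-like cells (69.4% and 69.3%).

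Pdk1 and Pdk3, kinases that restrain pyruvate oxidation, were highest in the muscle. Pdk1 was at 89.6 and 62.0 CPM in the muscle, and Pdk3 at 117 and 96.3 CPM. All 15 genes of pyruvate oxidation and the citric acid cycle were also past 2-fold higher in cardiomyocyte-like cells, with a median log2 ratio of 1.49. Of 4 tested genes of the pentose phosphate pathway, a branch that makes NADPH and ribose, 0 were higher and 1, Tkt, was lower. The 4 pentose phosphate genes G6pdx, Pgd, Rpia and Tkt, of 6 tested, were instead past 2-fold higher in white-blood-cell-like cells, where 10.2% of all genes were higher. Tkt stood at 349 and 324 CPM there and at 45.5 and 35.1 CPM in the muscle.

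Among oxygen-response genes the muscle was high for some and not for others. Hif1a was at 324 and 201 CPM in cardiomyocyte-like cells and between 71.3 and 142 CPM in mesenchymal-, epicardial- and endothelial-like cells. Bnip3 was at 272 and 155 CPM in the muscle and lowest in endothelial-like cells, at 14.4 (11.6 to 17.6) and 12.4 (10.2 to 14.9) CPM. Higd1a, a mitochondrial protein gene, was at 444 and 439 CPM in the muscle, and Egln1, the main oxygen sensor of the pathway, at 148 and 132 CPM. P4ha1 ran the other way, with 43.8 and 26.8 CPM in the muscle, 136 and 90.3 CPM in epicardial-like cells and 121 and 58.7 CPM in mesenchymal-like cells, classes that make collagen. Egln3, Ankrd37 and Ndrg1 stayed under 17 CPM in every class. Epas1, which encodes the HIF-2 subunit and is no member, was past 2-fold higher in endothelial-like cells, at 37.6 and 42.6 CPM.

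Outside the muscle few members stood apart. Epicardial-like cells had 4 of 23 tested members past 2-fold higher (Slc2a1, Ldhb, Slc16a1, P4ha1) and 1 lower (Hk1), where 10.4% and 0.782% of all genes were so. Endothelial-like cells had 0 of 23 higher and 5 lower (Tpi1, Eno1, Ldhb, Slc16a3, Bnip3), where 10.9% of all genes were higher and 0.689% lower. White-blood-cell-like cells had 3 of 25 higher (Slc2a3, Hk1, Pfkp) and 1 lower (Ldhb), against 10.2% and 7.96% of all genes. Mesenchymal-like cells had 1 of 23 higher (Ldhb), and 0 lower, against 10.0% and 0.655%. The higher counts in these 4 classes lie near or under the shares over all genes, apart from the epicardial one, at 4 of 23.

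Free RNA from broken cells enters every droplet. The 12 cardiomyocyte markers, which other classes should lack, stood at a median of 3.40% and 2.66% of their muscle level in mesenchymal-like, 2.97% and 2.25% in endothelial-like, 3.25% and 2.41% in epicardial-like and 7.81% and 3.29% in white-blood-cell-like cells. Members at or under the highest of these markers in both libraries were Hk1, Pfkp and Eno3 in epicardial-like cells (Hk1 5.05% and 4.29%, Pfkp 4.50% and 3.56%, Eno3 8.62% and 8.97% of the muscle level). In endothelial-like cells they were Slc2a1, Pfkp, Eno3 and Bnip3 (Slc2a1 7.79% and 8.34%), and in mesenchymal-like cells Hk1, Aldoc and Eno3. In white-blood-cell-like cells there were 0. The isozyme shares given above for these genes in these classes rest on such levels, and the part of free RNA in them was not tested. Slc2a1 in mesenchymal-like cells, at 9.41% of the muscle level, lay within the range of the 12 markers in the control (2.24% to 15.9%). In H2CKO it stood at 9.52%, beside a highest marker of 9.34%.

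In erythroid-like cells, haemoglobin transcripts took 66.0% of control and 68.8% of H2CKO UMIs, so CPM of other genes is low. There 22 of 23 tested members were past 2-fold lower and 0 higher, and so were 82.0% and 2.58% of all genes. With the total taken without haemoglobin, mitochondrial and ribosomal-protein UMIs, 13 of 25 tested members were lower, and 28.3% of all genes. On that reduced total the 12 cardiomyocyte markers lay between 2.59% and 9.39% of their muscle level in the control and between 1.52% and 10.3% in H2CKO. On the same scale 28 of the 32 members lay above the highest marker in both libraries, and 3 (Hk2, Pfkp, Eno3) lay within the marker range in both. Ndrg1 stood at 285% and 338% of the muscle level, from a low level (2.42 CPM in the control), Ankrd37 at 65.1% and 50.8% and P4ha1 at 40.3% and 41.2%. Others well above the markers were Hk1 (43.2% and 22.1% of the muscle level), Pfkm (47.7% and 38.2%), Higd1a (35.4% and 41.9%), Gapdh (27.3% and 31.3%) and Bnip3 (25.8% and 32.9%). Ldha, at 10.1% and 10.8%, lay just above the markers. Free RNA of other classes may add to these levels and was not tested. Pklr, the pyruvate kinase gene of red cells, was at 19.4 (18.2 to 20.7) and 13.2 (12.4 to 14.1) CPM in erythroid-like cells and under 3 CPM in every other class. Bpgm, whose product makes the haemoglobin ligand 2,3-bisphosphoglycerate, was past 2-fold higher, at 299 and 353 CPM.

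**Figure D3:**
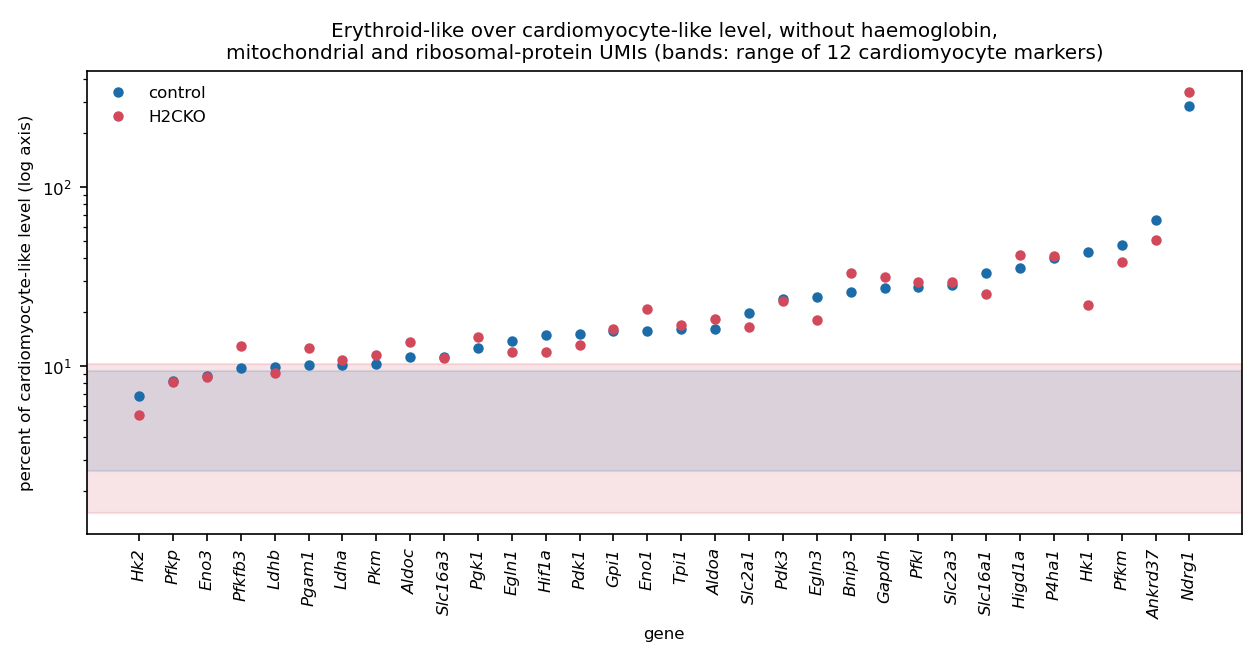
Level of each of the 32 genes in erythroid-like cells as a percent of its cardiomyocyte-like level (log axis), with haemoglobin, mitochondrial and ribosomal-protein UMIs left out of both totals; blue is control, red H2CKO, and bands give the range of 12 cardiomyocyte markers. Hk2, Pfkp and Eno3 lie in the bands, and 28 genes lie above them in both libraries.

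Muscle cells were clustered again without the shallow cluster of the class (1186 control and 250 H2CKO cells) and with the unnamed cluster whose best markers were those of cardiomyocytes. Among these, several oxygen-response members were highest, of the named subsets, in 2 small ones. Outflow tract-like cells (290 control and 388 H2CKO cells) carry markers of the muscle where blood leaves the heart, and atrioventricular canal-like cells (88 and 161) those of the slow-conducting junction of atria and ventricles. By the median of the other named subsets, 4 of 29 tested members were past 2-fold higher in the canal (Slc2a3, Aldoc, Bnip3, Ankrd37; 4.37% of all genes) and 2 of 28 in the outflow tract (Slc2a3, Ankrd37; 2.14%). With the filter on low values put on the other subsets, these counts were 1 and 0. No share over all genes was computed for that filter, so these counts cannot be set against one. On the same measure 4 of 28 were lower in trabecular ventricular-like cells (Slc2a1, Slc2a3, Bnip3, Ankrd37; 2.08%) and 2 of 28 in ventricular-like cells (Slc2a3, Ankrd37; 1.21%). Since each of those medians holds the other high or low subset, both were also set against the 2 ventricular subsets, trabecular ventricular-like (561 and 855 cells) and ventricular-like (296 and 920), summed; this reference was chosen after seeing the data. Another 4 subclusters, of 875 control and 1549 H2CKO cells, had no subset name and are left out. The 2 of them whose best match was ventricular (609 and 1282 cells) were also added to the reference, after seeing the data. The counts given below then stayed at 3 of 28 in the outflow tract (2.72% of all genes) and 6 of 29 in the canal (4.97%). Subclusters led by mitotic genes held 221 and 333 of the trabecular ventricular-like and 209 and 531 of the ventricular-like cells. Without them, an alternative also added after seeing the data, 4 members were past 2-fold higher in the outflow tract and 6 in the canal, against 3 and 6 with them. The share over all genes was not computed for that reference, so whether it moved as well is not known. Bnip3 was at 168 and 117 CPM in trabecular ventricular-like, 242 and 159 CPM in ventricular-like, 559 and 308 CPM in outflow tract-like and 670 and 414 CPM in atrioventricular canal-like cells. Both libraries gave this order. The fold over ventricular cells was 2.86 (2.74 to 2.98) in the control and 2.24 (2.13 to 2.36) in H2CKO for the outflow tract, and 3.43 (3.22 to 3.65) and 3.01 (2.81 to 3.22) for the canal.

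Other members shared this pattern to different degrees. Ankrd37 was at 5.16 and 7.90 CPM in trabecular ventricular-like, 11.1 and 13.8 CPM in ventricular-like, 46.4 and 43.8 CPM in outflow tract-like and 41.6 and 36.2 CPM in atrioventricular canal-like cells. It was 6.32-fold (5.27 to 7.61) and 4.04-fold (3.46 to 4.72) higher in the outflow tract and 5.67-fold (4.28 to 7.45) and 3.35-fold (2.64 to 4.21) in the canal. Slc2a3 was at 10.2 and 8.84 CPM in trabecular ventricular-like, 23.2 and 12.9 CPM in ventricular-like, 81.6 and 43.8 CPM in outflow tract-like and 79.4 and 55.1 CPM in atrioventricular canal-like cells, which is 5.44-fold and 4.03-fold higher in the outflow tract, and 5.29-fold and 5.08-fold in the canal. Egln3, a HIF target and feedback hydroxylase, was 6.96-fold (5.19 to 9.42) and 4.22-fold (3.14 to 5.65) higher in the outflow tract and 8.10-fold and 5.27-fold in the canal, from levels under 6 CPM in both ventricular subsets. Slc2a1 was 1.80-fold and 1.87-fold higher in the outflow tract, against 2.55-fold and 2.56-fold in the canal. P4ha1 was 2.12-fold and 1.64-fold, then 2.82-fold and 2.23-fold. Among enzymes, Eno3 was 2.36-fold and 1.83-fold higher in the outflow tract and Ldha 1.58-fold and 1.77-fold, while Aldoa was at 1.21-fold and 1.27-fold. Hif1a was at 341 and 213 CPM in trabecular ventricular-like, 361 and 212 CPM in ventricular-like, 336 and 175 CPM in outflow tract-like and 360 and 209 CPM in atrioventricular canal-like cells. Its ratio to ventricular cells was 0.964 (0.922 to 1.01) and 0.821 (0.771 to 0.873) in the outflow tract and 1.03 (0.952 to 1.12) and 0.983 (0.898 to 1.07) in the canal. Slc16a1 was lower, at 0.476 and 0.511 of the ventricular level in the outflow tract and 0.548 and 0.498 in the canal. The Ldha share was 90.8% and 88.8% in outflow tract-like cells, against 81.9% and 76.0% in trabecular ventricular-like cells.

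By the 2-fold rule in both libraries, 6 of 29 tested members were higher in the canal (Slc2a1, Slc2a3, Aldoc, Bnip3, Ankrd37, P4ha1), where 5.24% of all genes were. In the outflow tract 3 of 28 were higher (Slc2a3, Bnip3, Ankrd37), where 2.92% were. Slc2a3, Aldoc and Ankrd37 passed the filter of 20 CPM only through the subset where they are high, so these counts are no measure of the members as a set. With the filter put on the ventricular side instead, an alternative added after seeing the data, 3 of 26 members were higher in the canal (2.23% of all genes) and 1 of 26, Bnip3, in the outflow tract (1.16%). With a filter of 100 CPM the counts were 2 of 21 (5.34%) and 1 of 21 (3.22%). No member was lower in either, where 1.27% of all genes were lower in the canal and 0.904% in the outflow tract. Thinned to 5000 UMIs per cell, the canal count was 3 of 27 (4.43% of all genes). With each cell named by its own markers it was 3 of 28 (1.34%). Of 22 other hypoxia-response genes tested, 9 were higher in the canal, among them Adm (22.3-fold and 8.96-fold), Vegfa (3.39-fold and 2.50-fold) and Rora (8.76-fold and 5.59-fold). In the outflow tract 3 of 20 were (P4ha2, Rora, Cdkn1a). The same limit of the filter holds for these genes. No gene of pyruvate oxidation and the citric acid cycle, of 15, was past 2-fold in either, and their median log2 ratio was -0.14 and -0.33.

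Several measures moved with this pattern. Mesenchymal markers summed to 824 and 411 CPM in outflow tract-like and 776 and 435 CPM in canal-like cells, against 428 and 196 CPM in ventricular-like cells. Endothelial markers summed to 71.2 and 50.4 CPM in the canal and 40.3 and 41.4 CPM in the outflow tract, against 19.0 and 18.7 CPM in ventricular-like cells. White-blood-cell markers were at 109 CPM in the canal of H2CKO and at 39.9 CPM in its ventricular-like cells. These marker sums are set against ventricular-like cells only, not against the trabecular ventricular-like cells that the reference also holds. Smooth-muscle markers were highest in outflow tract-like cells, at 6679 and 6626 CPM. Dissociation-stress genes summed to 652 and 688 CPM in the canal, 538 and 510 CPM in the outflow tract, 460 and 506 CPM in ventricular-like and 391 and 389 CPM in trabecular ventricular-like cells. Their median log2 ratio over the ventricle was 0.76 in the canal and 0.36 in the outflow tract. The ribosomal-protein share was 13.8% and 14.5% in the canal and at most 16.8% in the outflow tract, against 18.9% to 20.1% in the ventricular subsets. Cells of the canal had medians of 17371 and 12247 UMIs, and ventricular-like cells 28150.5 and 16985.5. Haemoglobin took 1.73% of UMIs in the canal-like cells of H2CKO and at most 0.646% in every other pairing of these 4 subsets with a library. The part of these in the result was not tested. The clustering genes of the subsets also held Cox4i2, itself known as a hypoxia-inducible gene, which was among the leading genes of the outflow tract-like subset. The atrial-like subset had 101 control cells and 1 H2CKO cell, so it is described in the control only. Of those 101 cells, 100 lie in the unnamed cluster, outside the cardiomyocyte-like class: Bnip3 was at 118 CPM, Ldha at 1252 CPM and Slc16a1 at 87.2 CPM there.

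**Figure D4:**
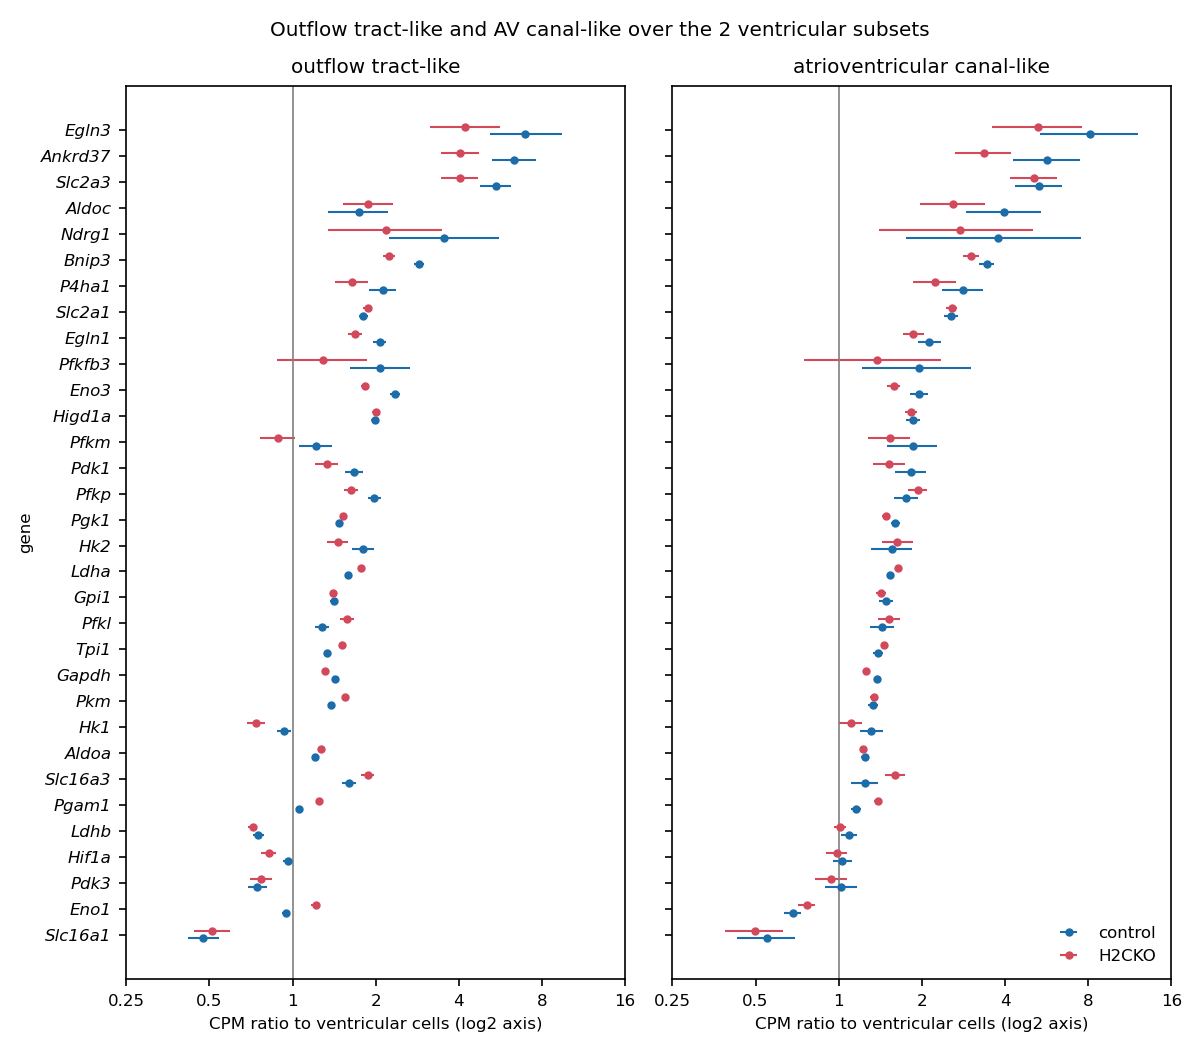
Ratio of CPM in outflow tract-like (left) and atrioventricular canal-like cells (right) to the summed ventricular subsets, on a log2 axis, for the 32 members; blue is control, red H2CKO, and bars are exact 95% intervals. Egln3, Ankrd37 and Slc2a3 lie farthest right, Bnip3 above 2 in both panels, Hif1a near or just under 1, and Slc16a1 is leftmost.

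Between genotypes, few members changed by 2-fold. In cardiomyocyte-like cells 0 of 27 tested members passed, where 1.18% of all genes did. The counts were 0 of 23 in mesenchymal-like (3.55% of all genes), 0 of 24 in epicardial-like (6.24%) and 0 of 20 in endothelial-like cells (8.09%), the class with the largest fall of Hand2. In erythroid-like cells 1 of 12 passed (8.12%): Hk1 was at 23.6 CPM in the control (1211 UMIs) and 8.80 CPM in H2CKO (586 UMIs), a ratio of 0.373 (0.337 to 0.412) and a log2 ratio of -1.05. In white-blood-cell-like cells 1 of 26 passed (6.77%): Pdk1 went from 58 to 22 UMIs, or 43.0 (32.7 to 55.6) to 16.8 (10.6 to 25.5) CPM, a log2 ratio of -1.14. The Hk1 call ended under 6 alternatives, among them taking out the gene length trend, and the Pdk1 call likewise under 6, among them thinning to 5000 UMIs (-0.41). No member passed in trabecular ventricular-like (0.763% of all genes), ventricular-like (1.42%), outflow tract-like (1.8%) or atrioventricular canal-like cells (2.41%). These counts are near or under the shares over all genes, but 3 of the counts of 0 did not hold under every alternative. The epicardial-like count was 5 of 26 with each cell named by its own markers, where 6.18% of all genes passed. The endothelial-like count was 3 of 21 under the strict cell filter (10.4%), and the mesenchymal-like count 3 of 23 with a pseudocount of 1 CPM (6.79%).

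Smaller shifts went the same way in all 6 classes for some members. Gapdh was higher in H2CKO in every class, by 0.44 to 0.63 on the log2 scale, and Gpi1, Pkm, Pgk1, Ldhb, Aldoa and Tpi1 were also higher in all 6, although with the gene length trend below taken out Pgk1 and Ldhb were higher in 5, Aldoa in 4 and Tpi1 in 3. Hif1a was lower in every class, with log2 ratios from -0.95 to -0.67, and Eno1 from -0.70 to -0.29. Bnip3, Slc16a1, Hk1, P4ha1, Pfkfb3, Pdk3, Slc2a3 and Pfkp were also lower in all 6, but under that correction Hk1, P4ha1 and Pfkfb3 were lower in 5, Pdk3 in 4, and Slc2a3 and Pfkp in 2. Pfkfb3 passed the filter in 1 class, Slc2a3 and Pfkp in 2 and Slc16a1 in 3, so their other class values lie under it, and the smallest shift of Pfkfb3 was -0.02. Of the 8438 genes tested in at least 1 class, 41.1% were lower and 8.15% higher in all 6, and of the 28 members so tested 10 and 7 were. In cardiomyocyte-like cells Eno1 and Eno3 moved apart, with ratios of H2CKO to control of 0.614 (0.605 to 0.623) and 1.54 (1.51 to 1.57). A shallow cluster, with Eno1 among its leading genes, held 1186 of the 3291 control but 250 of the 4121 H2CKO cells of the class. Without it the log2 ratios were -0.68 for Eno1 and 0.62 for Eno3. In endothelial-like cells Hif1a was at 142 and 71.8 CPM, a ratio of 0.504 (0.456 to 0.557). In the same class mesenchymal markers went from 3377 to 1002 CPM, dissociation-stress genes from 2476 to 1747 CPM and the ribosomal-protein share from 19.4% to 25.7%. Fosb, 1 gene of the 11 on the stress list, was past 2-fold lower in mesenchymal-, epicardial-, endothelial- and white-blood-cell-like cells. It does not stand for the list as a whole. Their part was not tested. The 2 libraries fill the class from different clusters: 1 endothelial-like cluster held 124 control and 482 H2CKO cells, the other 268 and 255. The marker, stress-gene and ribosomal-protein values of this class therefore mix the clusters in different proportions in the 2 libraries. They are no measure of a change within a cluster. In the first alone Hif1a (-1.02) and Pfkfb3 (-1.53) were past 2-fold lower, where 9.4% of all genes passed. In the second, 0 members were, and 3.88% of all genes. The control and H2CKO erythroid-like cells likewise lay mostly in different clusters.

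The genotype ratios moved with the length of the gene. Over all tested genes of a class, the log2 ratio fell with annotated gene length (Spearman's rho across genes between -0.56 and -0.44 in the 6 classes, a description, since genes of a library are not independent). In cardiomyocyte-like cells the median was 0.08 for genes under 10 kb and -0.39 for those over 50 kb, and the members followed, at 0.32 (6 genes) and -0.32 (5 genes). Gapdh spans 4.75 kb and Hk1 111 kb. Eno1 (12.2 kb), Bnip3 (18.7 kb) and Slc16a1 (19.8 kb) fall between 10 and 50 kb, where the median of all tested genes was itself between -0.26 and -0.16 in the 6 classes. With the trend taken out, Gapdh, Gpi1 and Pkm stayed higher and Hif1a, Eno1, Bnip3 and Slc16a1 lower in all 6 classes. Relative to the median gene, which lay between -0.27 and -0.17 in the 6 classes, Hif1a, Eno1, Hk1 and P4ha1 stayed lower in all 6. On that scale Pfkp was higher in 2 classes, and Bnip3, Slc16a1, Slc2a3, Pdk3 and Pfkfb3 in 1 each. The share of mitochondrial UMIs also differed, at 4.54% and 6.98% in the muscle, as did haemoglobin, at 1.25% and 4.73% in mesenchymal-like, 1.35% and 4.68% in epicardial-like and 2.20% and 4.29% in endothelial-like cells. The part of these differences in the ratios was not tested, and with 1 library each, genotype and library cannot be told apart.

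**Figure D5:**
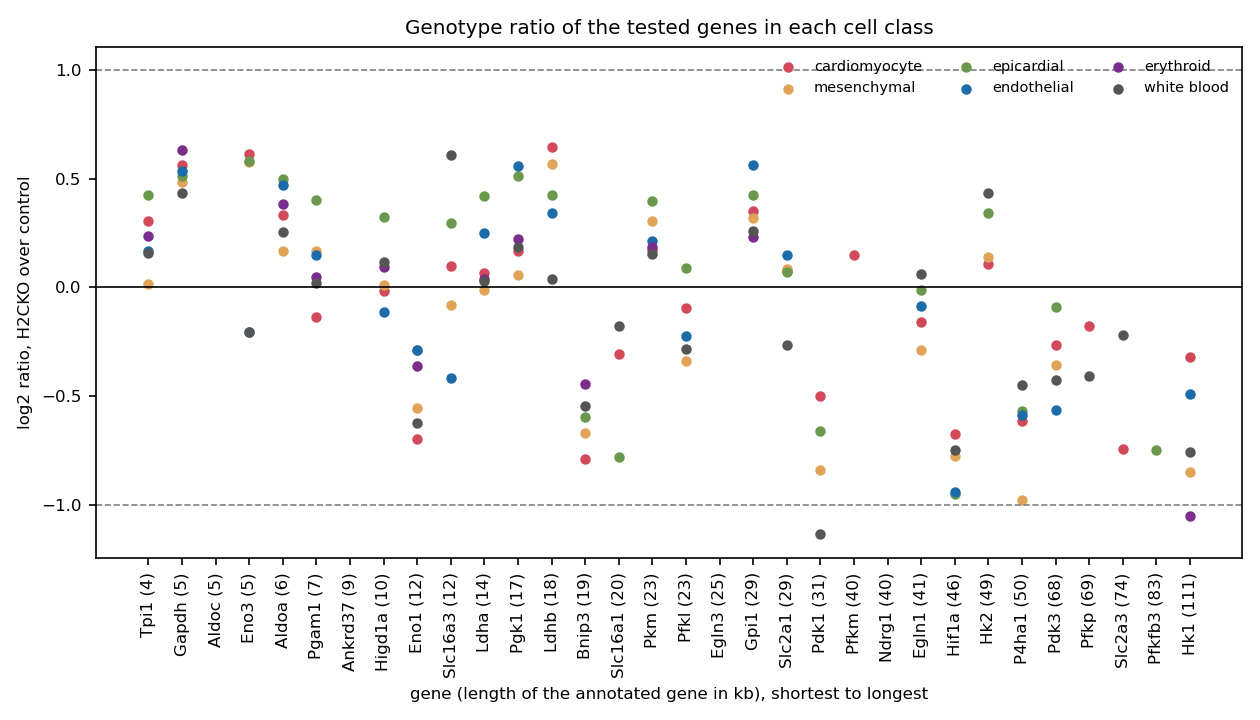
Log2 ratio of H2CKO over control CPM for the tested members, ordered by annotated gene length (kb in parentheses), with 1 point per cell class; dashed lines mark 2-fold. Most short genes at the left lie above 0 and most long genes at the right below it, and the points past a dashed line are Pdk1 in white-blood-cell-like and Hk1 in erythroid-like cells.

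Of the other hypoxia-response genes tested, 2 of 17 were past 2-fold lower in H2CKO in cardiomyocyte-like cells, where 1.18% of all genes were past 2-fold, and 2 of 18 in mesenchymal-like cells (3.55%). The counts were 1 of 17 in epicardial-like (6.24%), 2 of 15 in endothelial-like (8.09%), 1 of 6 in erythroid-like (8.12%) and 2 of 13 in white-blood-cell-like cells (6.77%), with 0 higher in each. The list's median log2 ratio was -0.19 in cardiomyocyte-like, -0.42 in mesenchymal-like and -0.50 in endothelial-like cells, against -0.17, -0.22 and -0.27 over all genes. It was -0.23, -0.31 and -0.09 in epicardial-, erythroid- and white-blood-cell-like cells, against -0.23, -0.19 and -0.18. Several of these counts lie near the shares over all genes, and the gene length trend was not taken out of them. Plod2, a collagen lysyl hydroxylase gene, went from 71.6 to 31.3 CPM in cardiomyocyte-like and from 191 to 82.7 CPM in mesenchymal-like cells, and was also past 2-fold in epicardial- and endothelial-like cells. Plod2 is itself past 2-fold higher in mesenchymal-like cells than in the other classes (log2 2.18). The mesenchymal markers moved with it, from 654 to 244 CPM in cardiomyocyte-like and from 8245 to 4141 CPM in mesenchymal-like cells, and their part was not tested. Tfrc, the transferrin receptor, went from 150 to 31.6 CPM in erythroid-like cells. Vegfa, the vascular growth factor, went from 50.6 to 17.2 CPM in endothelial-like and from 29.4 to 9.73 CPM in mesenchymal-like cells. None of the 15 genes of pyruvate oxidation and the citric acid cycle passed in any class.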

How the data were processed

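Each library has 1 deposited matrix of raw counts, whole UMIs per barcode and Ensembl gene. Per the submitters' processing notes, Cell Ranger 5.0.1, Seurat 4 and GRCm38.p6 were used; the role of each is not given in the sources used here. The authors also deposited embedding coordinates (a score without a unit) for some cells, used only to mark those cells in 1 alternative. Of 22401 features, 22285 matched a symbol. Barcodes under 500 genes or over 10% mitochondrial UMIs were dropped, and the 8% of cells with the highest Scrublet scores were removed from each library, because its automatic threshold called 921 control cells and 0 H2CKO cells. Cells were clustered on 2000 variable genes (scanpy 1.11.5, leidenalg 0.10.2, resolution 1.0, 15 neighbours from each library), leaving out the 32 members and the pathway lists, and named from fixed markers. A cluster of median 1569.5 UMIs is part of the cardiomyocyte-like class. Each class was summed within its library and scaled to CPM. Ratios use a pseudocount of 5 CPM. With 1 library per group, no p-value was computed; intervals are exact Poisson, binomial (Clopper-Pearson) or conditional, at 95%, and cover counting error only. The functions were tested on simulated data. Named are all 32 members, Hand2, the reporters, Pklr, Bpgm and, of the pathway lists, genes past 2-fold, at most the 6 largest per list and comparison. Members and lists were chosen with earlier results of these data known. Gene length comes from GENCODE vM21.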

Additional observations from a re-analysis of the deposited data

How the results depend on the processing

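No paired analysis was possible because each genotype has 1 library. The count of 22 members higher in cardiomyocyte-like cells lay between 17 and 24 over the alternatives that could be fitted. It was 17 of 20 with a filter of 100 CPM (19.7% of all genes) and 17 of 21 with the filter on the reference side (5.61%). With no filter on low values it was 24 of 32 (5.62%). It was 22 without the shallow cluster, an alternative added after seeing the data. Counts of members past 2-fold between genotypes changed as follows. In mesenchymal-like cells the count was 1 of 23 after thinning to 5000 UMIs (3.53% of all genes) and 3 of 23 with a pseudocount of 1 CPM (6.79%). In epicardial-like cells it was 1 of 26 without doublet removal (3.62%) and 1 of 24 at a clustering resolution of 0.5 (6.32%). With each cell named by its own markers it was 5 of 26 (6.18%). In endothelial-like cells it was 3 of 21 under the strict cell filter (10.4%), 1 of 20 after thinning (9.84%) and 2 in the first cluster alone (9.4%). In erythroid-like cells it was 0 of 11 under the strict cell filter (3.93%), 0 of 16 without doublet removal (5.49%) and 0 of 12 after thinning (7.8%). It was also 0 of 12 centred on the median gene (3.89%) and 0 of 2 with a filter of 100 CPM (5.75%). With the gene length trend taken out it was 0 of 12 (3.29%). In white-blood-cell-like cells it was 0 of 26 without doublet removal (7.73%), with the members allowed in the clustering (9.01%) and centred on the median gene (4.47%). With a filter of 100 CPM it was 0 of 11 (4.76%). After thinning it was 1 of 16 (9.65%) and with own-marker naming 1 of 26 (6.84%), both without Pdk1 (-0.41 and -0.65). In cardiomyocyte-like cells it stayed 0 under every alternative run, with 0.546% to 2.85% of all genes past 2-fold where that share was computed. The outflow tract count was 1 of 21 with a filter of 100 CPM (3.22%) and 1 of 26 with the filter on the reference side (1.16%). The canal count was 3 of 28 with own-marker naming (1.34%) and 3 of 27 after thinning (4.43%). It was 2 of 21 with a filter of 100 CPM (5.34%) and 3 of 26 with the filter on the reference side (2.23%). The causes were not tested, except that the 100 CPM and reference-side filters test fewer genes. Subset counts could not be obtained under the strict filter or at resolution 0.5, where the 4 subset names were not all reached. The contrast between classes and the erythroid count could not be obtained from the cells with deposited coordinates, which hold no erythroid-like class. Hif1a and Eno1 were lower and Gapdh and Gpi1 higher in H2CKO in all 86 class values over 17 settings, which share the same 2 libraries. The Eno1 share in cardiomyocyte-like cells stayed between 70.7% and 71.8% in the control and 49.6% and 51.4% in H2CKO.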
